A study of Oryza sativa Japonica Group with 6 samples.

Results

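WRKY, NAC, ERF and DREB proteins are plant transcription factors, and the genes described here are those of the rice array whose names place them in these families. A gene was taken when its symbol or a synonym, without a leading Os, was WRKY, NAC, ERF or DREB followed by a number. This found 30 genes, of which 23 had at least 1 probe set paired with no other gene, out of 17905 genes with such a probe set. They comprised 6 WRKY, 8 NAC, 8 DREB and 1 ERF gene with 32 probe sets in all. The names are synonyms from RefSeq, and many further genes of these large families carry no such name in the tables used here, so the set is the named part of each family. All 8 DREB genes also carry an ERF number, because DREB factors are a branch of the ERF family, and were counted as DREB.

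WRKY factors bind the W box and are known mainly from immune responses, where some activate and others repress defence genes. NAC factors act in stress responses, senescence and organ development. DREB factors bind the dehydration-responsive element: the DREB1 branch is known from cold and the DREB2 branch from drought, salt and heat. ERF factors are named for ethylene-responsive promoter elements.

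The study compared 2 accessory cell types of the rice embryo sac, the synergids beside the egg cell and the antipodals at the opposite end. Both came from wild-type greenhouse plants of the japonica cultivar Katy, with no treatment, and were dissected by hand from florets at anthesis without wall-digesting enzymes. There were 3 arrays of each cell type, labelled as biological replicates without naming separate plants or days. The p-values therefore reflect how much these samples varied, and some of that variation may be technical. They also draw on the spread of other probe sets of like brightness, which weighed more than each gene's own spread. The labelling protocol describes other cell types (egg cells and zygotes), and how many cells each array represents was not stated there. Because the isolates are bulk samples, fewer cells expressing a gene and less of its RNA per cell cannot be told apart.

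The values are MAS5 signals, a linear brightness per probe set and array. Antipodal array 2 stood apart: its median signal was 170.3 against 46.5 to 67.1 on the other arrays, and its correlation with them across tested probe sets was 0.734 to 0.783. No defining synergid or antipodal marker of rice could be named with certainty here, so the labelled cell types were not checked against such markers. Markers of the ovule tissue around the embryo sac (MADS3, MADS13, MADS21 and MADS29) had a summed signal of 6236 to 11354 on synergid arrays and 2551 to 4322 on antipodal arrays. None of the 4 was called (adjusted p from 0.196 to 0.465, limma), with log2 fold changes (synergid minus antipodal) of 1.18 to 1.82. All 4 were higher in synergids at an unadjusted p under 0.05 in limma, beside 4.29% of all tested probe sets. For all 4 every synergid array lay above every antipodal array, beside 6.17% of all tested probe sets. Of the other marker lists, leaf genes summed to 4086 to 9534 on synergid and 6034 to 12231 on antipodal arrays, with 3 of 4 tested. Most of that sum was CAB2R, with synergid and antipodal means of 5601 and 8524. The means were 316 and 470 for rca and 160.1 and 157 for OsrbcS, and RBCS1 was too dim to be tested. Endosperm genes summed to 4822 to 5585 and 2356 to 5331, with 4 of 10 tested (GT2, Wx, RAG2 and GLUA-2). The brightest of them was GT2, with means of 3286 and 2039, and it was taken by its symbol alone. GLUA-1, GLUA-3, GLUB-4, GLUB-5, RP5 and RAG1 were too dim to be tested. Anther genes summed to 20.2 to 125 and 130.0 to 356, with 1 of 3 tested. No leaf, endosperm or anther gene was called, and the part of any marker list in the differences given here was not tested.

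No gene of these families differed between the cell types at the threshold of an adjusted p under 0.05 in limma. Of the 23 genes, 19 passed the filter on low signals and were tested, 6 WRKY, 6 NAC and 7 DREB genes, each through its probe set with the highest mean. Across all 34355 tested probe sets, 0.256% were called higher and 0.064% lower in synergids. The count of 0 among 19 genes is therefore near the background rate. At an unadjusted p under 0.05, 2 of the 19 were higher in synergids (DREB1B and DREB2A) and 0 lower, beside 4.29% and 4.01% of all tested probe sets. The 3 synergid arrays lay above all 3 antipodal arrays for 1 of the 19 (DREB1B) and below them for 0, beside 6.17% and 7.26% of all tested probe sets. The median log2 fold change (synergid minus antipodal, on log2 of signal plus 16) was 0.21 over the 19 genes and -0.08 over all tested probe sets. Positive values were found for 14 of the 19 genes and for 45.3% of all tested probe sets. With quantile normalisation the median of all tested probe sets moved to 0.04 and with median centring to 0.07, and that of the 19 genes to 0.45 and 0.36. Without antipodal array 2, the array that stood apart, 12 of the 19 genes were above 0 beside 51.3% of all tested probe sets, the median was 0.35 and 0 were called (also 0 at an unadjusted p under 0.05). Without antipodal array 1 the median of the 19 genes was 0.01, with 10 of the 19 above 0. Over all 6 such omissions the median ranged from 0.01 to 0.50.

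**Figure D1:**
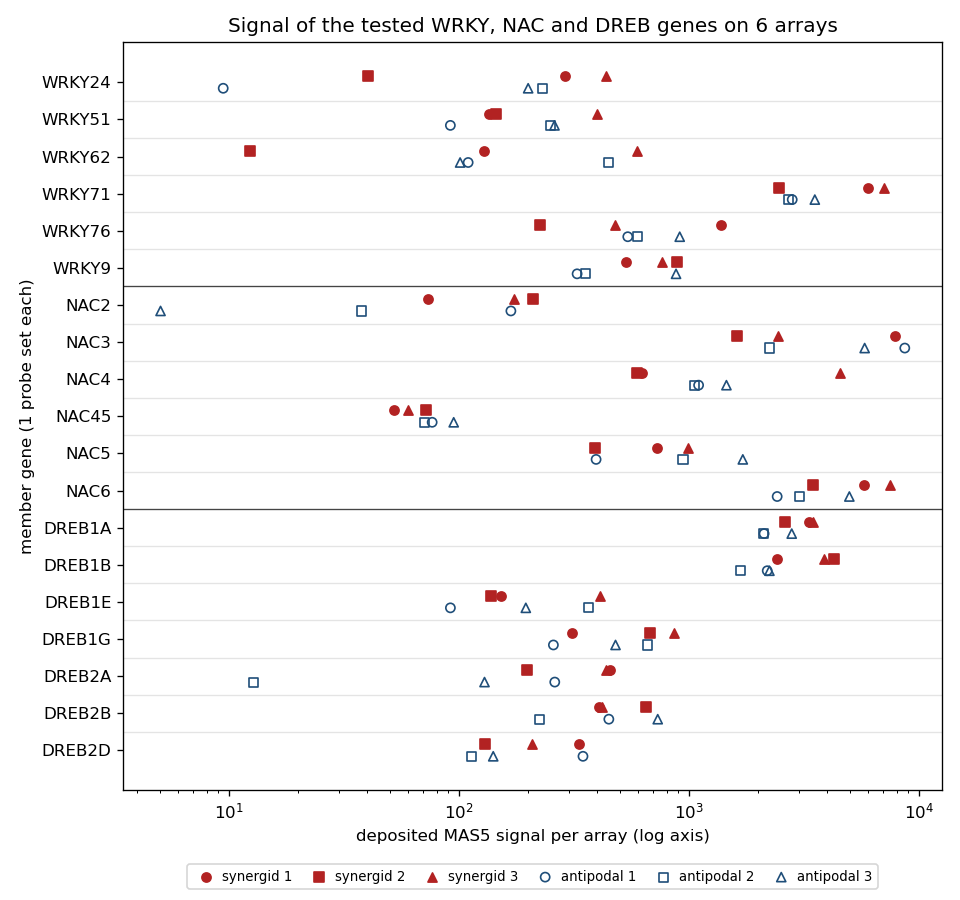
Deposited MAS5 signal (log axis) of the 19 tested genes, 1 probe set each, with filled red symbols for the 3 synergid arrays and open blue symbols for the 3 antipodal arrays. The cell types separate for DREB1B alone, and WRKY24, WRKY62, NAC2, NAC4 and DREB2A have wide gaps between arrays of the same cell type.

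The DREB genes were the branch with all 7 tested members on the synergid side, with log2 fold changes from 0.12 to 1.76 and a median of 0.37. None was called (adjusted p from 0.588 to 0.977). All 7 also stayed above 0 with quantile normalisation and with median centring, and 6 of 7 did with array weights. Leaving out 1 array kept 5 to 7 of them above 0, with 5 when antipodal array 2 was left out.

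DREB1B and DREB1A, cold-induced activators in rice, lie side by side in RefSeq except for DREB1H between them, which has no probe set of its own here. DREB1B (LOC4347618) had signals of 2426, 4283 and 3879 on synergid arrays 1, 2 and 3 and of 2189, 1679 and 2238 on antipodal arrays. Every synergid array lay above every antipodal array, the lowest synergid value being close to the highest antipodal one. Its mean was 3529 ± 977 for synergids and 2035 ± 309.6 for antipodals (SD, n = 3 each), a log2 fold change of 0.76 (SE 0.34, 95% interval 0.02 to 1.50, limma adjusted p = 0.589). DREB1A (LOC4347620) had 3311, 2624 and 3450.3 on synergid arrays and 2121, 2114 and 2798 on antipodal arrays. The groups overlapped through synergid array 2 and antipodal array 3, and the log2 fold change was 0.42 (SE 0.32, 95% interval -0.28 to 1.11, limma adjusted p = 0.775). Among the 19 genes DREB1A had the smallest SE, with the highest array 1.31 times the lowest in synergids and 1.32 times in antipodals. The SE also depends on brightness: the dim NAC45, with ratios of 1.38 and 1.34, had 0.72, and 0.40 without the intensity trend. DREB1A and DREB1B both had signals above 1000 on all 6 arrays.

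The other DREB1 genes gave smaller or more variable values. DREB1G (LOC4330306) had 309, 679 and 859 on synergid arrays and 257, 659 and 479 on antipodal arrays, with wide overlap (log2 fold change 0.37, 95% interval -0.76 to 1.50). DREB1E (LOC4336721) had 153, 138 and 412 against 91.8, 364 and 195, and its log2 fold change of 0.12 changed sign in 3 of 17 other settings. DREB1C (LOC4339974), also named CBF1, was not tested: its 3 probe sets had signals from 3.30 to 157 over the 6 arrays. DREB1F, DREB1H, DREB1I and DREB1J had no probe set of their own and were not analysed here.

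DREB2A (LOC4324418), known as an activator of dehydration and salt responses, had the highest log2 fold change of the 19 genes. Its signals were 453, 198 and 436 on synergid arrays and 261, 12.8 and 129 on antipodal arrays. Antipodal array 2 was far below the rest, and antipodal array 1 lay above synergid array 2. The means were 362 ± 143 and 134 ± 124 (SD, n = 3 each), a log2 fold change of 1.76 (SE 0.80, 95% interval 0.06 to 3.47, limma adjusted p = 0.588). Without antipodal array 2 the log2 fold change was 0.83, and without antipodal array 1 it was 2.46. A further probe set that pairs DREB2A with another gene was left out.

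DREB2B and DREB2D had nearly equal group means. DREB2B (LOC4338484), which is known to be induced by heat and drought, had 406, 649 and 418 on synergid arrays and 448, 224 and 731 on antipodal arrays. Both the lowest and the highest value were antipodal, and the log2 fold change was 0.18 (95% interval -0.93 to 1.30). DREB2D (LOC4339084) had 334, 129.6 and 207 against 346, 113 and 141, a log2 fold change of 0.21 (95% interval -1.17 to 1.59), and its dimmer probe set lay between 2.48 and 17.3. DREB2C had no probe set of its own and was not analysed here.

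**Figure D2:**
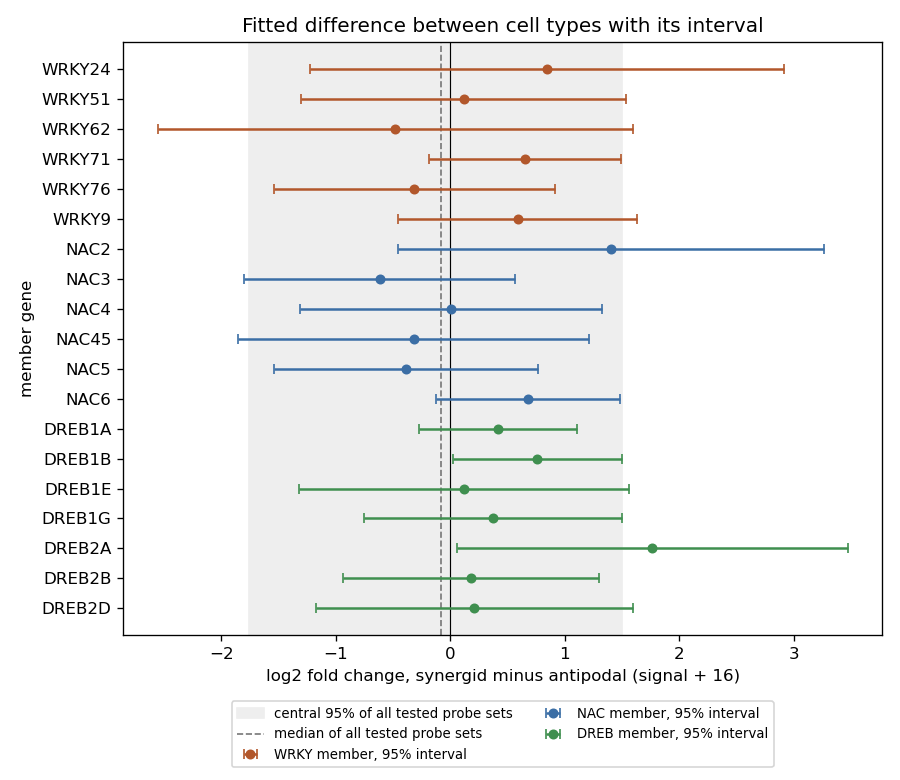
Log2 fold change of each tested gene (synergid minus antipodal, on log2 of signal plus 16) with its 95% interval from limma. The dashed line is the median of all 34355 tested probe sets (-0.08) and the grey band their central 95% (-1.76 to 1.50). The intervals of DREB1B and DREB2A alone exclude 0, and the estimate for DREB2A alone lies outside the band.

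The NAC genes divided evenly, with 3 of the 6 tested members above 0 and 3 below, and none was called. Their log2 fold changes ran from -0.62 to 1.40 with a median of -0.16. The sign of this median was not stable: it ranged from -0.37 to 0.24 with 1 array left out and was 0.11 with array weights.

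NAC6, NAC5, NAC3 and NAC45 are stress-responsive factors in rice. NAC6 (LOC4325006, also SNAC2), whose overexpression is known to raise stress tolerance, had signals of 5795, 3474 and 7473 on synergid arrays and 2419, 3036 and 4982 on antipodal arrays. Synergid arrays 1 and 3 were above all antipodal arrays, while synergid array 2 fell within their range. The means were 5581 ± 2008 and 3479 ± 1338 (SD, n = 3 each), a log2 fold change of 0.68 (SE 0.38, 95% interval -0.13 to 1.48, limma adjusted p = 0.676).

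The probe sets annotated to NAC6 disagreed. A dimmer one had signals of 64.7, 39.3 and 8.95 on synergid arrays and of 107, 426 and 105 on antipodal arrays. Here every antipodal array lay above every synergid array, a log2 fold change of -1.96 (SE 0.81, 95% interval -3.70 to -0.22, limma adjusted p = 0.550). It kept this sign in all 16 other settings in which it was tested, as the bright one kept its positive sign in all 17. The third probe set, between 1.45 and 105, was not tested. Nothing in the files tells which of them reads the NAC6 transcript best.

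NAC3 (LOC4342753) had the lowest log2 fold change of the representing probe sets. Its signals were 7873, 1616 and 2446 on synergid arrays and 8679.8, 2239 and 5808 on antipodal arrays, a log2 fold change of -0.62 (SE 0.55, 95% interval -1.80 to 0.57, limma adjusted p = 0.808). Array 1 was the brightest and array 2 the dimmest in both cell types. Without synergid array 1 the log2 fold change was -1.28 (adjusted p = 0.446).

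NAC5 (LOC4349963) also overlapped, with 727, 392 and 992 on synergid arrays and 395, 942 and 1715 on antipodal arrays (log2 fold change -0.39, 95% interval -1.54 to 0.77). Its 2 dimmer probe sets stayed between 2.97 and 117. NAC45 (LOC4349650) was dim but even, with 52.2, 72.0 and 60.2 against 76.4, 70.6 and 94.8. Only synergid array 2 and antipodal array 2 crossed, and the log2 fold change was -0.32 (95% interval -1.85 to 1.21).

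The values of NAC4 and NAC2 depended on single arrays. NAC4 (LOC4327485), known in rice from hypersensitive cell death, had signals of 624, 593 and 4552 on synergid arrays and of 1101, 1054 and 1455 on antipodal arrays. Synergid array 3 was above every antipodal array and the other synergid arrays were below all of them. The log2 fold change was 0.01 with all arrays (95% interval -1.31 to 1.32) and -0.95 without synergid array 3 (limma adjusted p = 0.999). NAC2 (LOC4336052, also TIL1), a regulator of tillering and plant architecture, had 73.4, 211 and 174 on synergid arrays and 168, 37.6 and 5.04 on antipodal arrays. Its log2 fold change was 1.40 (SE 0.87, 95% interval -0.46 to 3.26, limma adjusted p = 0.714). Leaving out antipodal array 3, the array at 5.04, gave 0.66, and leaving out antipodal array 1 gave 2.22. A pseudocount of 1 gave 2.04. NAC4 is also a synonym of this second locus in RefSeq, so the locus number is the safer name.

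NAC7 and NAC010 did not pass the filter. NAC7 (LOC4341201) had 27.2, 58.8 and 55.4 on synergid arrays and 2.38, 11.1 and 28.1 on antipodal arrays in its brighter probe set. NAC010 (LOC4343630) stayed between 4.35 and 24.5. NAC077 and NAC8 had no probe set of their own and were not analysed here.

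The WRKY genes included both steady and very uneven signals between arrays of a cell type, and none was called. Of the 6 tested, 4 had a positive and 2 a negative log2 fold change, from -0.48 to 0.84 with a median of 0.35. Without antipodal array 1 the median was -0.27, with 2 of 6 above 0.

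WRKY71, WRKY51 and WRKY24 are known as repressors of gibberellin signalling in the rice aleurone, where WRKY71 and WRKY51 act together. WRKY71 (LOC4328512) had signals of 5977, 2464 and 7076 on synergid arrays and of 2812, 2719 and 3526 on antipodal arrays. Synergid arrays 1 and 3 were above all antipodal arrays, and synergid array 2 was below all of them. The means were 5172 ± 2409 and 3019 ± 442 (SD, n = 3 each), a log2 fold change of 0.65 (SE 0.39, 95% interval -0.19 to 1.49, limma adjusted p = 0.707). Its dimmer probe set, between 7.34 and 259, gave 0.47 (SE 1.00).

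WRKY51 (LOC4335388), the partner of WRKY71 in the aleurone, had 135, 145 and 398 on synergid arrays and 91.7, 249 and 260.2 on antipodal arrays. Its groups overlapped throughout (log2 fold change 0.12, 95% interval -1.30 to 1.54). WRKY24 (LOC4327518) had 288, 40.4 and 437 against 9.44, 230.2 and 199.9, with 1 low array in each cell type. Its log2 fold change of 0.84 (SE 0.97, 95% interval -1.23 to 2.91) became 1.75 without synergid array 2 and -0.22 without antipodal array 1.

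WRKY62 and WRKY76, repressors of defence against blast fungus and bacterial blight, are neighbours in RefSeq but were not bright on the same arrays. WRKY62 (LOC4347070, also XB10) had signals of 129, 12.3 and 596 on synergid arrays and of 109.6, 445 and 101 on antipodal arrays. The highest synergid array was 48.3 times the lowest, the widest spread in either cell type among the 19 genes. WRKY76 (LOC4347069) had 1376, 225 and 475 on synergid arrays and 542, 595 and 912 on antipodal arrays, with the antipodal values inside the synergid range. The log2 fold changes were -0.48 (95% interval -2.55 to 1.60) and -0.31 (95% interval -1.54 to 0.92). Both signs turned without synergid array 2, to 0.65 and 0.28.

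WRKY9 (LOC4343736) had 533, 887 and 762 on synergid arrays and 326, 354 and 879 on antipodal arrays. Antipodal arrays 1 and 2 lay below all synergid arrays and antipodal array 3 among them (log2 fold change 0.59, SE 0.49, 95% interval -0.46 to 1.63, limma adjusted p = 0.792).

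The only member counted as ERF was ERF078 (LOC4344233), better known as FZP or FRIZZY PANICLE, a determinant of spikelet meristem identity. It did not pass the filter, with 39.3, 5.01 and 33.9 on synergid arrays and 2.31, 22.7 and 3.59 on antipodal arrays. At these signals no difference could be measured.

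The absence of calls does not show that the 19 genes were equal in both cells. The 95% interval lay within a 2-fold change in either direction for 0 of the 19 and within a 4-fold change for 15. The exceptions were WRKY24, WRKY62, NAC2 and DREB2A, whose lowest signals lay between 5.04 and 12.8. SEs ran from 0.32 (DREB1A) to 0.97 (WRKY62), beside a median of 0.67 over all tested probe sets.

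Arrays of the same cell type also differed from each other, in a pattern that recurred across families. Among the synergid arrays, array 3 was the highest for 10 of the 19 genes and the lowest for 0, while over all tested probe sets it was the highest for 34.2% and the lowest for 25.9%. Synergid array 2 was the lowest for 12 of the 19, beside 34.4% of all tested probe sets. These 12 were 4 WRKY, 4 NAC and 4 DREB genes, among them WRKY71, WRKY76, NAC3, NAC6 and DREB1A. Among the antipodal arrays, array 3 was the highest for 11 of the 19, beside 24.0% of all tested probe sets. Antipodal array 2 was the highest for 4 of the 19 (WRKY24, WRKY62, DREB1E and DREB1G), beside 48.8% of all tested probe sets. The 19 genes share each array and its preparation, so these counts are not independent of each other. What lies behind them was not tested.

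**Figure D3:**
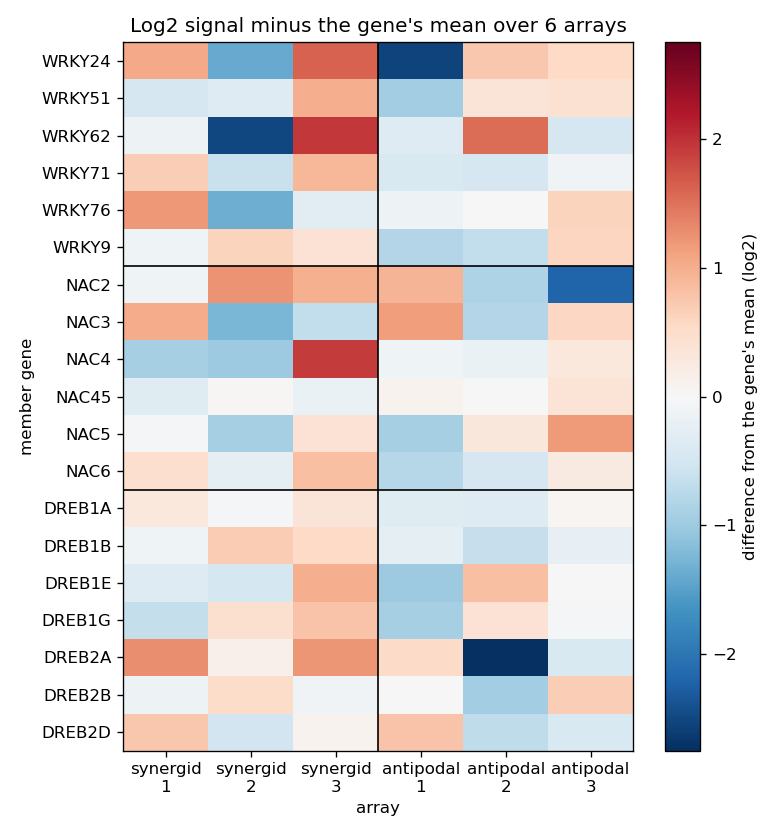
Log2 of signal plus 16 minus the gene's own mean over the 6 arrays, for the 19 tested genes (rows) and the 6 arrays (columns), with red above and blue below the mean. Synergid array 3 is above the mean for most genes, synergid array 2 is low for several WRKY and NAC genes, and the darkest cells are single arrays of WRKY24, WRKY62, NAC2 and DREB2A.

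Lists of genes from pathways in which such factors act gave no call either. In the lists of ethylene, defence, MAP kinase, dehydration, senescence and wall, and abscisic acid genes, 0 of 8, 0 of 11, 0 of 17, 0 of 7, 0 of 4 and 0 of 68 tested genes were called in limma. At an unadjusted p under 0.05, the numbers higher and lower in synergids were 0 and 0 for ethylene, 1 and 1 for defence, 1 and 1 for MAP kinases, 0 and 2 for dehydration, 0 and 0 for senescence and wall, and 8 and 2 for abscisic acid. The shares over all tested probe sets were 4.29% and 4.01% at that p, and 0.256% and 0.064% at the adjusted threshold. The corresponding median log2 fold changes were 0.15, 0.34, 0.08, -0.66, 0.33 and 0.20, beside -0.08 over all tested probe sets. With 1 array left out, the ethylene median ranged from -0.10 to 0.35, the MAP kinase median from -0.11 to 0.29 and the dehydration median from -1.09 to -0.27. The defence median was -0.13 when every probe set of each gene was used.

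The dehydration list had the lowest median of the lists, with 2 of 7 genes above 0 and 5 below. Its genes were taken by name, and whether DREB factors bind them was not examined. The salt-induced lectin gene salT (LOC4326471) had signals of 188, 22.2 and 218 on synergid arrays and of 3443, 3360.2 and 366 on antipodal arrays. Every antipodal array lay above every synergid array, though antipodal array 3 was near the synergid values. Its log2 fold change was -3.75 (SE 0.84, limma adjusted p = 0.0984). The dehydrin gene RAB16D (LOC4350451), named after its values were seen, had 4047, 432 and 698 against 24084, 4332 and 5869. Its log2 fold change was -2.96 (SE 0.71, limma adjusted p = 0.142), with antipodal array 2 only just above synergid array 1. The 2 genes were both called without synergid array 1 (log2 fold changes of -4.12 and -3.91, adjusted p = 0.0267 and 0.000894), and salT alone without antipodal array 3 (-4.81, adjusted p = 0.00914). Number format differs between array 1 and arrays 2 and 3 of each cell type. With it as a block both genes were called (limma adjusted p = 0.0162 for salT and 8.25e-05 for RAB16D). Calls over all tested probe sets also rose with this block, to 137 higher and 147 lower. Of the 17 other settings, salT was called in 6 and RAB16D in 5, and neither was called in the main fit. Across these settings the limma adjusted p reached 0.645 for salT and 0.6999 for RAB16D. At the other end RAB21 (LOC4350454), a dehydrin gene of the same RAB16 cluster in RefSeq, lay at 0.63 on the log2 scale (limma adjusted p = 0.741), with overlapping arrays. The second gene above 0, the dehydrin gene Dhn1 (LOC4330265), also named after its values were seen, had 22026, 16905 and 21234 on synergid arrays and 14054, 11829 and 15734 on antipodal arrays. Its synergid arrays all lay above its antipodal arrays, with a log2 fold change of 0.53 (SE 0.29, limma adjusted p = 0.669). The DREB genes and this list lay on opposite sides of 0 by their medians (0.37 and -0.66), a difference that was not tested.

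Upstream of the ERF branch, the ethylene receptor genes ERS2 and ETR3 marked the ends of the ethylene list, with log2 fold changes of 0.98 and -0.28 (adjusted p = 0.734 and 0.945). Of the defence genes, NPR4 at LOC4327365, a salicylate receptor homologue, had 422, 1723 and 631 on synergid arrays and 229, 221 and 246 on antipodal arrays. The arrays did not overlap, and the log2 fold change was 1.67 (SE 0.55, limma adjusted p = 0.391). Other NPR genes, named after their values were seen, lay on the other side: NPR3 (LOC4333666) at -1.24 with arrays that did not overlap (adjusted p = 0.553), and a second NPR4 locus (LOC4325758) at -1.54 with arrays that did (adjusted p = 0.692). PBZ1, a pathogenesis-related gene, was lowest in that list at -1.63 (adjusted p = 0.699), and at -0.20 without synergid array 2, where its signal was 4.09. Among MAP kinase genes, which phosphorylate WRKY factors in immune signalling, MPK17 had 1.44 and MAPK2 at LOC4332475, also named MPK5, had -1.13 (adjusted p = 0.573 and 0.577). In the senescence and wall list the ends were NYC1, a chlorophyll degradation gene, at 0.72 and the secondary wall cellulose synthase CESA7 at -1.21 (adjusted p = 0.799 and 0.742). The abscisic acid list consists mostly of protein phosphatase 2C genes, many of them outside that pathway. Its ends were the receptor gene OsPYL11 at 1.67 and OsPP2C29 at -1.69 (adjusted p = 0.608 and 0.620), with ranges of 0.77 to 2.34 and -2.28 to -0.66 when 1 array was left out.

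**Figure D4:**
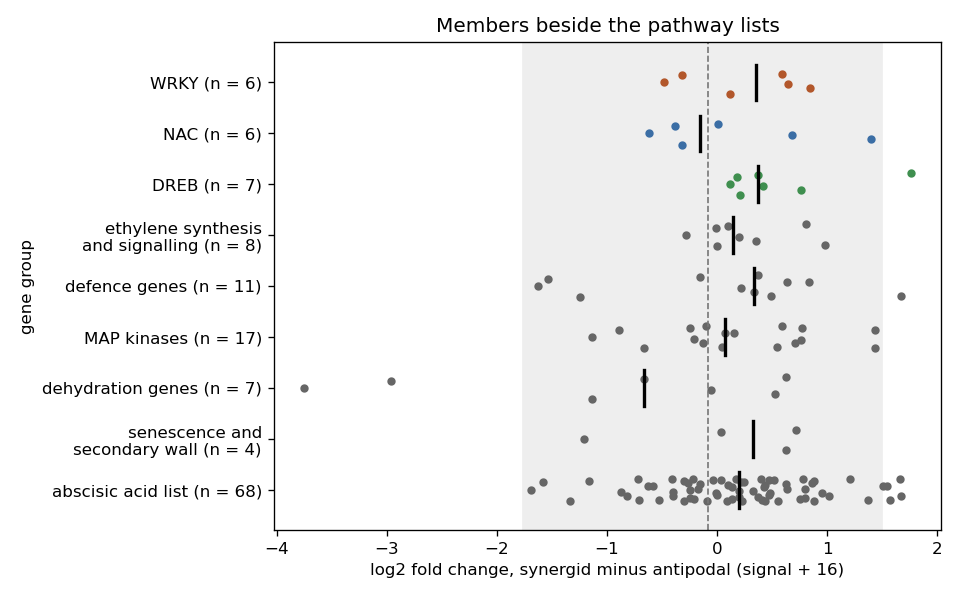
Log2 fold change (synergid minus antipodal, on log2 of signal plus 16) of each tested gene in the 3 factor families and the 6 pathway lists, with a black bar at each median. The dashed line is the median of all tested probe sets and the grey band their central 95%, and salT and RAB16D lie below the band at -3.75 and -2.96.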

How the data were processed

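The authors deposited 1 table of linear MAS5 signal intensity for 6 Affymetrix arrays (GCOS 2.0 and MAS5, per the submitters' processing notes). The trimmed mean signal was 500.1 on each array, so a common scaling preceded deposit. No detection calls were used, and the number of arrays limits the precision. Depth in reads does not apply.

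Signals were analysed as log2(signal + 16), computed from the deposited intensities, which understates changes of dim probe sets. Control probe sets and the 40% with the lowest mean were left out, leaving 34355. Cell types were contrasted in R 4.3.3 by limma 3.58.1 (lmFit, eBayes with an intensity trend, group as the only term), with Benjamini-Hochberg adjustment over all of them. For each probe set, eBayes draws the variance toward that of probe sets of like brightness, with 10.6 prior and 4 residual degrees of freedom. The procedure was tested on simulated data whose added changes were larger than the fold change of any member gene. That test does not show how well differences of the size seen here would be found. Figures were drawn with matplotlib 3.10.9.

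Genes were named through gene numbers of the platform annotation and RefSeq synonyms (ASM3414082v1, used for names and neighbours only). A gene was represented by its probe set with the highest mean of log2 values. Named were, per family, the 3 highest and 3 lowest log2 fold changes and the 2 brightest members, which took in every tested gene but DREB1G (described for completeness), and the highest and lowest gene of each pathway list. In the seed storage markers the symbol RAG was used only with a number, since RAG alone is a name of MADS3. The members and lists were chosen with earlier results of these data known. Sequences were not used here.

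Same-numbered arrays of the cell types had deviations from their group means that correlated at 0.218, 0.116 and 0.0197. Differently numbered arrays gave -0.153 to 0.0216. The labels state no pairing, so the numbers were not taken as pairs in the main fit, though these values do not exclude one. Alternatives covered pseudocounts, filters, normalisation, weights, blocks, each array left out, and every probe set of a gene.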

Additional observations from a re-analysis of the deposited data

How the results depend on the processing

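No WRKY, NAC or DREB gene was called in any of the 17 other settings, nor among the 21 tested probe sets when all of a gene's probe sets were used. The lowest adjusted p for a gene was 0.360. The sign was kept in every setting for 9 of the 19 genes, and the other 10 turned at least once. With 1 array left out, the log2 fold changes ranged from -0.22 to 1.75 for WRKY24, -0.35 to 0.38 for WRKY51, -1.56 to 0.65 for WRKY62, -0.99 to 0.28 for WRKY76, -0.95 to 0.50 for NAC4, -0.94 to 0.10 for NAC5, -0.35 to 0.56 for DREB1E, -0.25 to 0.57 for DREB2B, -0.11 to 0.66 for DREB2D and -0.72 to 0.0509 for ETR3. Array weights turned WRKY62 to 0.64 and DREB2B to -0.22. Quantile normalisation turned NAC4 to -0.0465, NAC45 to 0.0115 and ETR3 to 0.0695, and a pseudocount of 1 turned NAC4 to -0.0008. Within the 4 arrays written with more digits, a comparison chosen after seeing the data, WRKY24, WRKY51 and DREB1E had -0.53, -0.0675 and -0.14. With a single array of each cell type, the other number format could not be tested alone. Dehydration genes gave 1 call without a filter (salT) and with array weights (RAB16D), and 0 to 2 with 1 array left out. With the number format as a block and within those 4 arrays they gave 2. Calls over all probe sets, 88 higher and 22 lower in the main fit, rose in these settings too. They were 96 and 42 without a filter, 130 and 63 with array weights, 137 and 147 with the format block, and 239 and 219 within those 4 arrays. The median of the defence genes was -0.13 over every probe set of each gene, against 0.34. With the replicate block, the numbers of the labels being no shown pairing, the members' count stayed at 0 and the dehydration genes gave 2 calls, while calls over all probe sets went from 88 higher and 22 lower to 149 and 144. The cause of these moves was not tested. Signals of 12.8 or less on at least 1 array limit WRKY24, WRKY62, NAC2 and DREB2A.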
